A study of Mus musculus with 2 samples.

Results

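The matrix metalloproteinases described here are 10 genes, Mmp2, Mmp3, Mmp9, Mmp10, Mmp11, Mmp13, Mmp14, Mmp15, Mmp16 and Mmp19, out of 20660 genes that could be named on the array. They were found as the non-control probes whose RefSeq transcript belongs to a member gene, which gave 11 probes: 9 members had 1 probe and Mmp11 had 2. Where a gene had more than 1 probe, its brightest probe represented it. The RNA came from primary chondrocytes of 6-day-old C57BL/6J mice, cultured on fibronectin in silicon chambers that can be stretched. One RNA sample was taken before loading, and the other 24 h after a single bout of cyclic tensile strain, in which the cells were elongated by 10% at 0.5 Hz for 30 min. Strain began 48 h after seeding, both samples were of the same strain and age with no genetic change labelled, and each was hybridised to 1 single-colour Agilent array. How many animals gave the cells is not stated in the sources used here. No unloaded culture of the later time point was analysed here, so strain and the additional 24 h in culture cannot be told apart.

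Matrix metalloproteinases are zinc-dependent endopeptidases that cut the proteins of the extracellular matrix. Most are made as inactive proenzymes that are activated by removal of a propeptide, and they are held in check by the tissue inhibitors of metalloproteinases. In cartilage, the breakdown of type II collagen and aggrecan by metalloproteinases and the related aggrecanases is a central step of osteoarthritis, and the study used Mmp13 mRNA as its readout of the response of chondrocytes to strain. The comparison below asks how the other members stood beside Mmp13 in the same RNA.

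Of the 10 members, 3 (Mmp13, Mmp3 and Mmp10) lie in a run of 10 metalloproteinase genes on chromosome 9, where every protein-coding gene from Mmp13 to Mmp7 belongs to the family. The other 7 members are spread over chromosomes 2 (Mmp9), 4 (Mmp16), 8 (Mmp2 and Mmp15), 10 (Mmp11 and Mmp19) and 14 (Mmp14). RefSeq promoter sequences were at hand for 6 members (Mmp3, Mmp10, Mmp11, Mmp13, Mmp14 and Mmp15), and the 150 bases before the start of transcription were searched for 5 short motifs. The sequences are those of the chromosome 9 members and of Mmp14, the members whose windows held an AP-1 or a RUNX match, and lie on the plus strand of GRCm38.p6 at chr9:7272364-7272513 for Mmp13, chr9:7445672-7445821 for Mmp3, chr9:7502192-7502341 for Mmp10 and chr14:54431448-54431597 for Mmp14. Capitals mark matches to the AP-1 motif TGANTCA, the TATA box TATAAA, the RUNX motif TGTGGT (read here on the opposite strand) and the GC box GGGCGG.
Mmp13: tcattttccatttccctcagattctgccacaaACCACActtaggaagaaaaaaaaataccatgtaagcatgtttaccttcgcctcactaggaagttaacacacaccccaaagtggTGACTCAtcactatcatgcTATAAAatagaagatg
Mmp3: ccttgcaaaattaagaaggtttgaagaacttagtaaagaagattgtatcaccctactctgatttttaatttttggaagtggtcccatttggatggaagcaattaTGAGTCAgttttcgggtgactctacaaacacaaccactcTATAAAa
Mmp10: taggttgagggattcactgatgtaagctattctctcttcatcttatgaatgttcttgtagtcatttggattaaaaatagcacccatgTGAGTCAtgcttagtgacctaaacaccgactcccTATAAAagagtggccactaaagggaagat
Mmp14: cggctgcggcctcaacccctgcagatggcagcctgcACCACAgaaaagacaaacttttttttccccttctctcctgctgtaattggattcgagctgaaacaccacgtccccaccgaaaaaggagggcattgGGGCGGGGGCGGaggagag

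All 3 chromosome 9 promoters held an AP-1 match, the sequence bound by Fos and Jun dimers. It began 35 bases before the start in Mmp13, 46 in Mmp3 and 63 in Mmp10. The same 3 promoters held a TATA box between the AP-1 match and the start, and none of the other 3 did. A RUNX match began 118 bases before the start in Mmp13 and 114 in Mmp14, and GC boxes stood in Mmp11, Mmp14 and Mmp15, with a pair of adjacent ones in Mmp14. Both strands were searched except for the TATA box, which was sought on the strand of the gene. Of 32851 mouse promoter windows of the same length, 4.24% held the AP-1 motif, 4.84% the TATA box, 8.40% the RUNX motif and 28.6% the GC box. The NF-kB motif (GGGA, then any 2 bases, then TTCC), which 0.788% of all windows held, was in none of the 6 member windows, which says only that these letters are not there. The windows of Mmp3, Mmp13 and Mmp10 had 35.3%, 38.7% and 39.3% G and C bases, against a median of 54.0% over all windows. That of Mmp14 had 57.3%, and those of Mmp11 and Mmp15 had 68.0% and 68.7%. A motif match is a description of the letters and not of a factor bound there.

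Intensities are the background-subtracted brightness of a spot in arbitrary units of the scanner software, and they can be compared between the arrays for 1 probe but not between probes. The arrays were alike in brightness, with a 75th percentile of 466 on each and 59.1% of spots before and 57.7% of spots after loading well above background, and no spot was saturated. All ratios are 24 h after over before loading, after division by that percentile. Each time point rests on a single array, so nothing here has a replicate check or a p-value. The error given with each log2 ratio joins the scanner software's errors of the spots on both arrays and covers error within an array only. In bulk RNA a lower level in each cell and fewer cells that express a gene cannot be told apart.

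Both arrays detected 7 of the 10 members well above background, and neither array detected Mmp9, Mmp10 and Mmp15. Among all named genes, 68.9% were well above background on both. Of the 7 detected members, 4 were brighter and 3 were dimmer after loading, and 47.6% of all detected genes were brighter. None passed 2-fold or 1.5-fold in either direction. Over the 14231 genes detected on both arrays, 0.668% were higher and 1.83% lower by more than 2-fold, and 3.65% were higher and 5.84% lower by more than 1.5-fold. The median log2 ratio of the detected members was 0.06, against -0.01 over all detected genes.

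**Figure D1:**
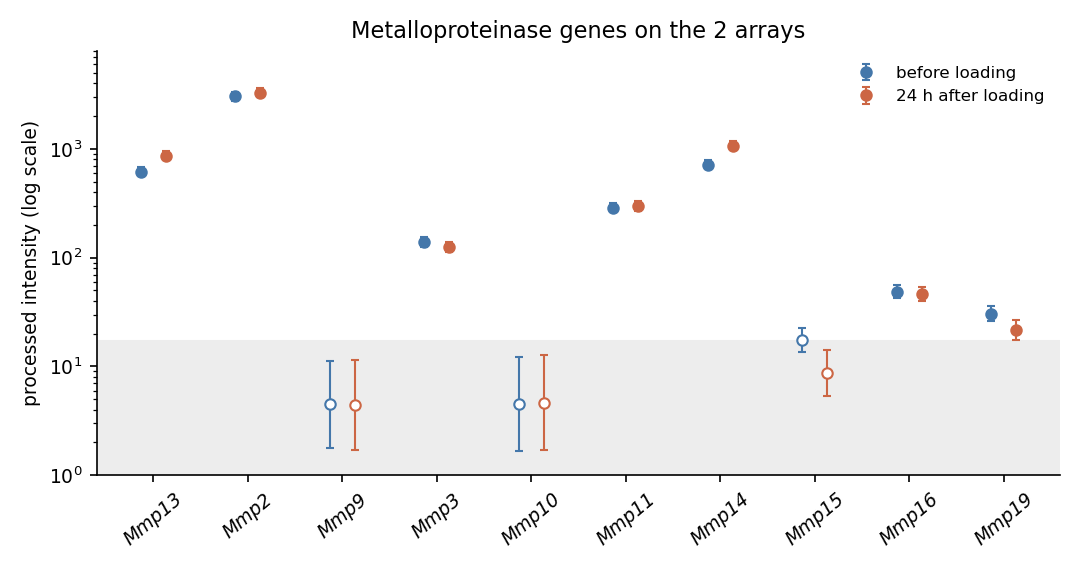
Processed intensity (log axis, arbitrary units) of the 10 members before and 24 h after loading, 1 array each, with bars of 1 within-array error of the scanner software. Open circles are probes that were well above background on neither array, and the grey band ends at the lowest intensity that was called well above background before loading (17.3). Mmp13 and Mmp14 are brighter after loading, from 617 to 867 and from 718 to 1072, whereas Mmp9, Mmp10 and Mmp15 are drawn as open circles. Heights of different genes are not comparable.

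Mmp13, the main collagenase of cartilage, which cuts type II collagen, had an intensity of 617 before and 867 after loading. Its log2 ratio was 0.49 ± 0.20, or 1.40-fold higher, and 94.5% of detected genes had a lower ratio. The spot itself was bright, with a median of 650 over a local background of 37 before and 899 over 46 after. The 29 spots within 100 µm of it on the array had a median log2 ratio of 0.01, and 3 of them were higher and 0 lower by more than 2-fold. It ranked 787 of 14231 from the highest ratio. Mmp13 was thus above most genes in its ratio and below the 1.5-fold limit.

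Mmp14, the membrane-anchored collagenase that also activates the proenzymes of Mmp2 and Mmp13, had an intensity of 718 before and 1072 after loading. Its log2 ratio of 0.58 ± 0.20, or 1.49-fold higher, was the highest of the detected members, and 96.2% of detected genes had a lower ratio. It fell short of the 1.5-fold limit by 0.0071 on the log2 scale, far less than its error. The ratio of Mmp14 exceeded that of Mmp13 by 0.09, with an error of 0.29, so the order of these neighbours is within the error. The 30 spots around the Mmp14 spot had a median of 0.04.

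Mmp13 and Mmp14 were the 2 members whose ratio was higher by more than 2 within-array errors, a limit chosen after the values were seen. Over all detected genes, 7.24% were higher by this measure and 9.12% were lower, and no member was lower. A total of 10 other ways of scaling, correcting or averaging the intensities gave the same 2 members, each set against the error of the ratio as reported. Mmp13 and Mmp14 each have 1 probe in 1 spot, so averaging over probes or keeping outlier spots could hardly change them. The unscaled values and the authors' rounded table could hardly differ either, so the ratios of these members were little tested by those settings. Against the spread of repeated spots the ratios were also large, although that spread again leaves out the difference between cultures. Probes printed in 8 or more spots with an intensity between 100 and 1000 numbered 102, and the spot-to-spot SD of their log2 ratio had a median of 0.10 and a 95th percentile of 0.20. The call against the 1.5-fold limit was less stable. With scaling to the median or to the spike-in controls, both Mmp13 (0.61 with the spike-in controls) and Mmp14 (0.70) passed it, and with quantile normalization Mmp14 did. With the spike-in controls the median of all detected genes moved from -0.01 to 0.10. The share of all detected genes higher by more than 1.5-fold rose as well. It went from 3.65% to 4.48% with quantile normalization, 5.64% with median scaling and 6.2% with the spike-in controls.

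**Figure D2:**
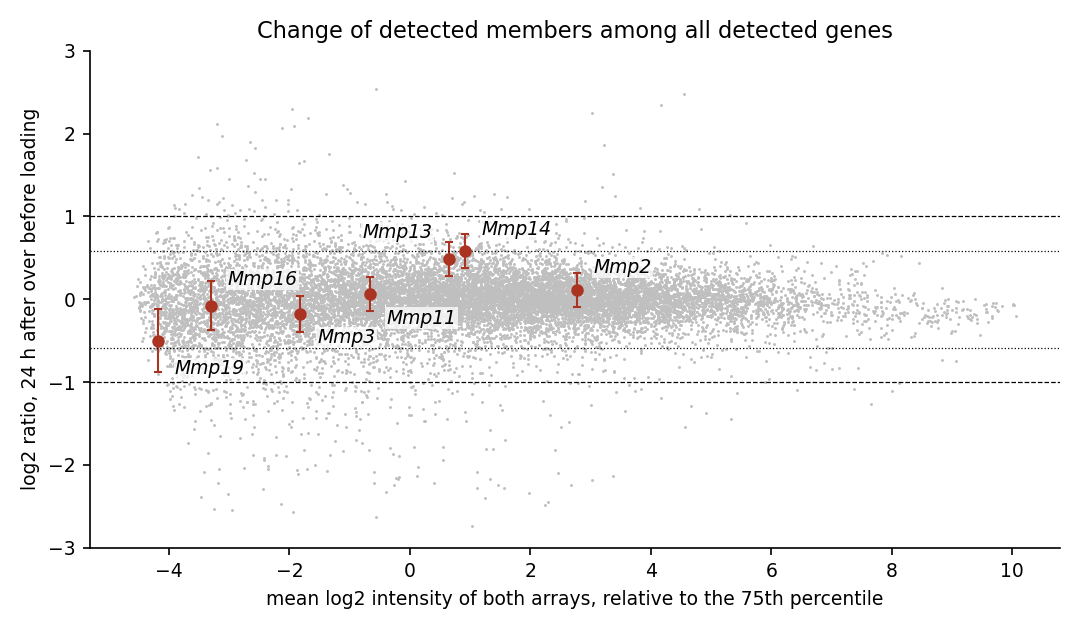
The log2 ratio (24 h after over before loading) of the 14231 detected genes, as grey points, against their mean log2 intensity relative to the 75th percentile, with the 7 detected members in red and bars of 1 within-array error. Dotted and dashed lines mark 1.5-fold and 2-fold. Mmp13 and Mmp14 lie in the upper part of the grey cloud, with 94.5% and 96.2% of detected genes below them, Mmp2, Mmp3, Mmp11 and Mmp16 lie near 0 and Mmp19 lies low in the wide, dim part of the cloud.

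The gelatinases cut denatured collagen and basement membrane collagen. Mmp2, the gelatinase made by most connective tissue cells, had an intensity of 3048 before and 3300 after loading. Its log2 ratio of 0.12 ± 0.20 was smaller than its error, and 69.1% of detected genes had a lower ratio. The spot was about as far above its local background on both arrays, by factors of 76.2 and 76.1. Mmp2 was therefore well measured and differed little, whereas its activator Mmp14 was 1.49-fold higher.

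Mmp9, the gelatinase typical of osteoclasts, neutrophils and macrophages, was printed in 10 spots, and 0 of the 10 were well above background on either array. The lowest, median and highest intensities were 3.50, 4.57 and 6.08 before and 3.55, 4.30 and 6.84 after loading, so the spots of both arrays overlapped almost wholly. No ratio is given. Ctsk, a protease of osteoclasts that other connective tissue cells can make too, had intensities of 15505 and 17637. Of the 6 osteoclast markers, 4 were detected, none past 1.5-fold, and Calcr and Dcstamp were not well above background. The sum over the osteoclast markers, mostly Ctsk, was 16435 before and 18721 after.

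The stromelysins cut proteoglycans and several non-collagen proteins and can activate other proenzymes. Mmp3, stromelysin 1, had an intensity of 141 before and 125 after loading. Its log2 ratio was -0.17 ± 0.22, smaller than its error, and it remained negative under the 10 alternatives, between -0.28 and -0.06. Mmp10, stromelysin 2, was not well above background, at 4.50 before and 4.62 after. Thus of the 3 chromosome 9 members, whose promoters share the AP-1 and TATA matches printed above, Mmp13 was higher by more than 2 errors, Mmp3 was within its error and Mmp10 was not well above background.

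Mmp11, stromelysin 3, which differs from the others in being activated inside the cell by furin, had an intensity of 288 before and 300 after loading. The log2 ratio was 0.06 ± 0.21 with its brightest probe. Its second probe read 138 and 134, with a log2 ratio of -0.04 ± 0.21. The probes differed in sign and both were well within their errors. With normexp background correction the brightest probe also turned negative, at -0.01.

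Of the other membrane-type members, Mmp15 was at 17.4 and 8.63, not well above background before or after loading, and no fold is given for it. Its spot was 1.69 times its local background before and 1.16 times after loading. Mmp16, a further membrane-type member that can activate the proenzyme of Mmp2, had an intensity of 48.5 before and 45.9 after. Its log2 ratio was -0.08 ± 0.29, and its sign held in 4 of 10 alternatives, so it has no settled direction. The ratio of Mmp16 was thus within its error and that of Mmp14 was beyond its own, but the difference between them was not set against an error.

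Mmp19, which stands apart from the other subgroups by sequence and cuts basement membrane proteins, had an intensity of 30.6 before and 21.6 after loading. At -0.50 ± 0.38 it had the lowest ratio of the 7 detected members, 1.41-fold lower, and 7.69% of detected genes had a lower ratio still. The spot was dim, at 2.08 times its local background before and 1.66 times after. The 29 spots around it had a median of -0.12. With normexp background correction the ratio was -0.15. For 42 repeated probes dimmer than 100, the spot-to-spot SD had a median of 0.29 and a 95th percentile of 0.46.

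**Figure D3:**
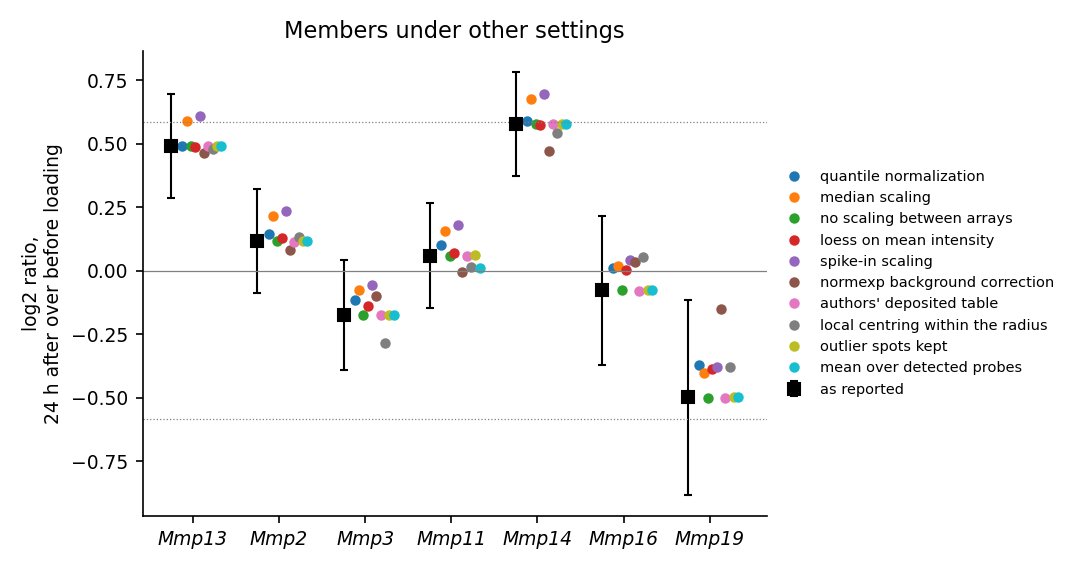
The log2 ratio (24 h after over before loading) of the 7 detected members as reported, as black squares with bars of 1 within-array error, and under 10 other settings, as coloured points. Dotted lines mark 1.5-fold. Mmp13 (0.46 to 0.61) and Mmp14 (0.47 to 0.70) stay above 0 throughout, Mmp11 and Mmp16 lie on both sides of 0 and Mmp19 moves from -0.50 to -0.15 with normexp background correction.

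Of 13 other genes of the family, 12 had a probe and 3 were detected on both arrays, against 68.9% of all named genes. All 3 were brighter after loading, as was 47.6% of all detected genes. Mmp23, a member with an unusual domain structure, had intensities of 491 and 689 and a log2 ratio of 0.49 ± 0.20. Mmp17, which is anchored to the membrane by a glycolipid, had intensities of 110 and 139 and a log2 ratio of 0.35 ± 0.22. The transmembrane member Mmp24 had intensities of 19.9 and 32.9 and a log2 ratio of 0.72 ± 0.39. It was past 1.5-fold, at 1.65-fold, and Mmp23 passed too with median (0.59) and spike-in scaling (0.61). For Mmp24, with normexp background correction the ratio was 0.23, and its second probe was not well above background.

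A pair of chromosome 9 genes were detected on 1 array. Mmp12, the elastase of macrophages, was not well above background before loading, at 19.8, and read 36.5 after on its brightest probe. The measured log2 ratio of that probe was 0.88 ± 0.44, with the dim reading before loading taken as it stood. The second probe of Mmp12 was well above background on neither array, at 4.83 and 4.96. Mmp8, the collagenase of neutrophils, read 27.3 before and was not well above background after, at 8.06. Its measured log2 ratio was -1.76 ± 0.88, with the dim reading after loading taken as it stood. Set against the lowest intensity called well above background after loading (17.8), it was 1.54-fold lower, with the error left out. The remaining 7 probed genes were well above background on neither array. In all, 10 of the 22 family genes with a probe were detected on both, against 68.9% of all named genes.

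The inhibitors help to set how much metalloproteinase activity follows from a given amount of enzyme. Of 8 genes, 6 were detected on both arrays, 3 higher and 3 lower. Timp1, a secreted inhibitor of most metalloproteinases, had intensities of 36375 and 21771 and a log2 ratio of -0.74 ± 0.20, 1.67-fold lower, and passed 1.5-fold. Timp2, which inhibits the enzymes and also takes part in the activation of Mmp2 by Mmp14, had intensities of 82174 and 112982 and a log2 ratio of 0.46 ± 0.20, which passed 1.5-fold with quantile normalization (0.62) and loess (0.59). Its second probe did not show this, with intensities of 14700 and 13700 and a log2 ratio of -0.09 ± 0.20. Reck, a membrane-anchored inhibitor, had intensities of 779 and 1064 and a log2 ratio of 0.45 ± 0.20, and its second probe gave 0.51.

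Timp3, the matrix-bound inhibitor that also blocks aggrecanases, had intensities of 69858 and 75299 and a log2 ratio of 0.11 ± 0.20. Timp4 (34.4 and 31.0) and the plasma protease inhibitor A2m (78.2 and 68.1) had log2 ratios of -0.15 ± 0.35 and -0.20 ± 0.24. The ratios of these 3 inhibitors were within their errors. The median of the 6 was -0.02, and its sign turned under 6 of 7 alternatives, up to 0.12. The inhibitors thus had no common direction, with Timp1 lower and Reck higher on both of its probes.

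The proenzymes are activated by proprotein convertases and by the plasminogen system. Of 12 such genes, 10 were detected on both arrays, 4 higher and 6 lower, with a median log2 ratio of -0.05, or 0.06 with the spike-in controls. Plat, the tissue-type plasminogen activator, passed 1.5-fold, from 83.4 to 132 with a log2 ratio of 0.67 ± 0.22, although with normexp background correction it was 0.38. Furin, the convertase that activates Mmp11 and Mmp14, read 6420 and 8178, with a log2 ratio of 0.35 ± 0.20. Furin, below the 1.5-fold limit, was named after its values were seen. All 8 genes for cell surface partners such as Bsg, an inducer of metalloproteinases, and Lrp1, their clearance receptor, were detected, 2 higher and 6 lower, and none passed 1.5-fold on its brightest probe. Dimmer probes of Cd44 (572 and 276, log2 ratio -1.05 ± 0.21) and Ddr2 (1420 and 906, -0.64 ± 0.20) did, whereas the brightest gave -0.07 and -0.16.

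Of 17 genes for transcription regulators of metalloproteinase genes, 16 were detected, 2 higher and 14 lower, where 47.6% of all detected genes were higher. Their median log2 ratio was -0.16 (between -0.16 and -0.04 under 7 alternatives), smaller in size than the median of their errors, 0.20. Several of those counted as lower lay near 0, such as Fosl2 (-0.03), Epas1 (-0.04) and Runx2 (-0.05). The median of all detected genes moved from -0.01 to 0.08 with median scaling and to 0.10 with the spike-in controls. The split into higher and lower regulators therefore depends on the scaling. Of the 16 detected regulators, 4 passed 1.5-fold and each was lower, against 5.84% of all detected genes that were lower by as much. The list was chosen with earlier results of these data known, so this comparison is a description and no test of the list. Of the 4, Fos and Fosl1 were still past the limit with median and spike-in scaling, and Fos alone with normexp background correction. Fosl1, an AP-1 subunit, read 98.7 and 45.0, with a log2 ratio of -1.13 ± 0.26, and was past 2-fold. Fos, another AP-1 subunit, read 183 and 92.8, with a log2 ratio of -0.98 ± 0.22, and the SD between its 8 spots was 0.14. With normexp background correction both were smaller in size, at -0.55 for Fosl1 and -0.62 for Fos. Lef1, a partner of beta-catenin, read 1006 and 636 (-0.66 ± 0.20, and -0.54 with the spike-in controls), and Hdac4, a repressor of Runx2, read 322 and 215 (-0.59 ± 0.21, and -0.47 with the spike-in controls). A dimmer probe of Epas1, a regulator known as HIF-2alpha, read 165 and 82.7 (-0.99 ± 0.22), whereas its brightest probe read 7053 and 6846 (-0.04 ± 0.20).

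Not all AP-1 subunits were lower to this extent. Jun had a log2 ratio of -0.16 ± 0.20 and Fosl2 one of -0.03 ± 0.20, whereas Jund stood at 0.36 ± 0.20. Runx2, which drives Mmp13 in hypertrophic chondrocytes, read 64.1 and 61.8, with a log2 ratio of -0.05 ± 0.26, and the NF-kB subunit Rela read 13251 and 14495, with one of 0.13 ± 0.20. These 5 genes, none past 1.5-fold, were named after their values were seen. Fos and Fosl1 were lower at the time point at which Mmp13 was higher, and no earlier time point was analysed here. Whether the AP-1 match of Mmp13 has a part in its ratio was not tested.

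**Figure D4:**
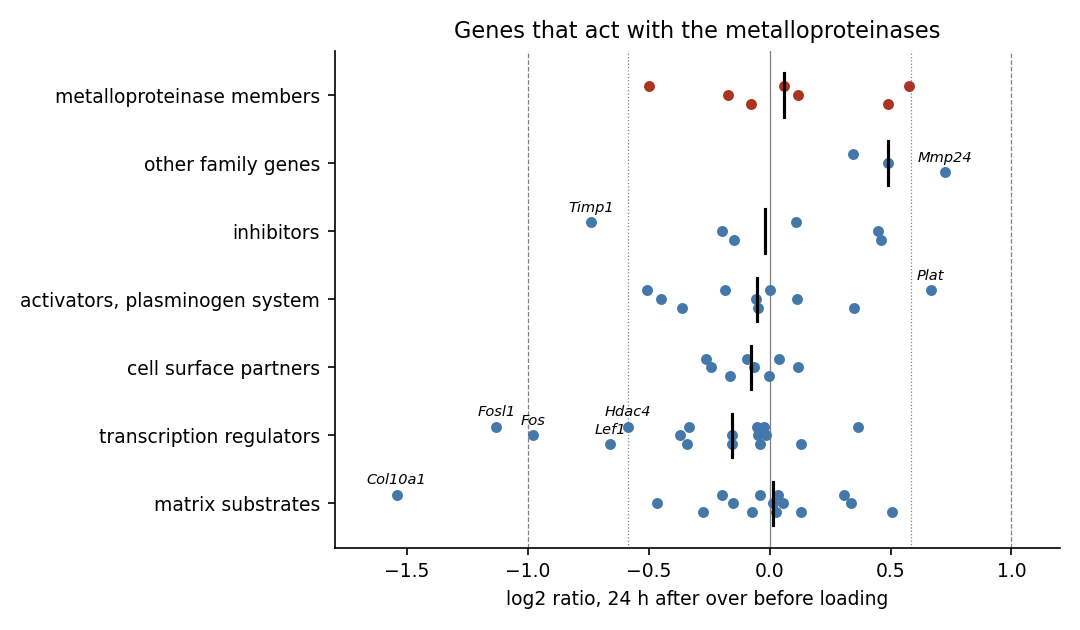
The log2 ratio (24 h after over before loading) of each gene detected on both arrays, for the members, in red, and for 6 lists of genes that act with them, in blue. Black bars are list medians, dotted and dashed lines mark 1.5-fold and 2-fold, and genes past 1.5-fold are named. The regulators spread furthest to the left, with Fosl1 at -1.13 and Fos at -0.98, and Col10a1 at -1.54 stands apart among the substrates.

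Of 15 matrix substrates, all were detected, 8 higher and 7 lower, with a median log2 ratio of 0.01. Col10a1, the collagen of hypertrophic chondrocytes, which also express Mmp13, was past 1.5-fold, at 18910 before and 6485 after, with a log2 ratio of -1.54 ± 0.20. It was therefore 2.91-fold lower while Mmp13 was 1.40-fold higher. Type II collagen, the main substrate of Mmp13, had intensities of 499543 and 474876 for Col2a1 (-0.07 ± 0.20), and aggrecan had intensities of 71349 and 89998 for Acan (0.34 ± 0.20).

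The arrays were checked against markers of the labelled cell type and of others. Sums over a list are led by its brightest probes. All 11 chondrocyte markers were detected on both arrays, none past 1.5-fold, with a summed intensity of 1288957 before and 1343577 after loading, and Sox9, the master regulator of chondrocytes, had intensities of 9965 and 11610. Single markers of other cell types differed more. Of 4 probed osteoblast markers, 3 were detected and all 3 were lower, and their sum was 374 before and 141 after. Ibsp stood at -2.06 ± 0.23, Sp7 at -0.64 ± 0.25 and Phex, near its error, at -0.34 ± 0.32. Dmp1, at 4.39 and 4.46, was not well above background. Among 5 fibroblast and tenocyte markers, 4 were higher and 1 was lower, and their sum was 13876 and 14552. Only Dpt passed 1.5-fold (2.10 ± 0.23). Scx was lower (-0.44 ± 0.20), and Mkx (0.21 ± 0.21) and Col3a1 (0.13 ± 0.20) differed little. Of the 6 macrophage markers with a probe, all were detected, and Ptprc passed 2-fold (from 20.9 to 46.1). Their sum, of which Itgam made up 25496 and 24759, was 29694 and 28783. The other probes of Itgam were far dimmer, at 49.0 and 44.2 and at 70.4 and 54.9, so the sum rests mostly on a single probe. Of the 6 neutrophil markers, 2 were detected on both arrays, and Camp read 131 and 764 on its brightest probe but 55.8 and 67.8 on the other, and the sums of 7143 and 6750 were mostly Elane (7011 and 5987). Ngp, Mpo and S100a9 were not well above background. Of 5 endothelial markers, 2 were detected and none passed 1.5-fold, with sums of 12884 and 12505 that were mostly Kdr (12774 and 12375). Another probe of Kdr, at 5.05 and 5.63, was not well above background, nor were Cdh5, Tek and Emcn. The part of these cells in the ratios of the metalloproteinases was not tested.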

How the data were processed

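RNA samples, 1 per time point, were measured on 2 single-colour Agilent arrays. The deposited files hold each spot's intensity as Agilent Feature Extraction 10.10.1.1 (named in the submitters' processing notes) processed it, with background subtracted and no scaling between arrays, and a table of the same values rounded.

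Outlier spots (141 before, 138 after loading) were left out, spots of 1 probe were averaged, and log2 intensities minus each array's 75th percentile were subtracted, 24 h after minus before loading. Gene names and gene order came from RefSeq (GRCm38). Of 55678 probes, 27235 matched. Detected means well above background by the software's call. The lowest such intensity was 17.3 before and 17.8 after loading. All members are named, as are inhibitors and other family genes detected on both arrays, genes of the other lists past 1.5-fold, and Col2a1, Acan and Sox9. Other genes were chosen after their values were seen. Members and lists were chosen with earlier results of these data known. Python 3.11.15, pandas 2.3.3 and limma 3.58.1 in R 4.3.3 were used. The steps were tested on simulated data with planted changes larger than 2-fold, so changes as small as those of the members were not tested. Normexp (offset 50) ran on the median spot signal.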

Additional observations from a re-analysis of the deposited data

How the results depend on the processing

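The log2 ratios of the 7 detected members were recomputed under 10 alternatives (5 scalings, normexp background correction, the authors' table, local centring, outlier spots kept and the mean over probes), and each moved by less than its within-array error. The unscaled values, the authors' table and the outlier spots kept could hardly differ from the reported ratios, nor could the mean over probes except for Mmp11. Mmp13 lay between 0.46 and 0.61, Mmp14 between 0.47 and 0.70, Mmp2 between 0.08 and 0.23, Mmp3 between -0.28 and -0.06 and Mmp19 between -0.50 and -0.15, all with 1 sign, while Mmp11 (-0.01 to 0.18) and Mmp16 (-0.08 to 0.05) changed theirs. The number of members higher by more than 1.5-fold went from 0 to 1 with quantile normalization (Mmp14) and to 2 with median scaling and with the spike-in controls (Mmp13 and Mmp14). With no filter on dim probes, 1 member (Mmp15) was lower by more than 2-fold, and so 1 by more than 1.5-fold, from spots not well above background. The median of the other family genes went from 0.49 to 0.23 with normexp and to 0.014 with no filter on dim probes.

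Over all detected genes, 95 were higher and 260 lower by more than 2-fold. These counts were 38 and 118 with normexp, 192 and 507 when detection on 1 array sufficed, 492 and 983 with no filter, and 23 and 95 when the limit had to be passed by more than 2 within-array errors. By more than 1.5-fold, 520 were higher and 831 lower, or 273 and 431 with normexp, 1305 and 2177 with no filter, and 79 and 225 beyond 2 errors. The share of higher genes among those past 1.5-fold was 38.5%, but 56.7% with median scaling (803 and 614 genes) and 60.8% with the spike-in controls (882 and 568), and among those past 2-fold it was 26.8%, 38.8% and 43.1%.

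No paired analysis was possible because each time point has a single array. The number of arrays limits the precision, and the spread between cultures is unknown. Brightness over background is the limit for Mmp9, Mmp10 and Mmp15, and of the detected members, the dim Mmp19 and Mmp16 have the widest errors.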
